A study of Mus musculus with 3 samples.

Results

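The genes described here encode the beta subunits of the sodium pump and the FXYD proteins that tune it. They are 7 of the 56941 genes in the table and were chosen by name: Atp1b1, Atp1b2 and Atp1b3 for the beta subunits, and Fxyd1, Fxyd5, Fxyd6 and Fxyd7 for the FXYD family. All 7 were found by symbol. They were read in 3 RNA sequencing libraries of brain microvascular fragments, which are short pieces of small vessel that carry endothelial cells together with attached mural and glial cells. The fragments came from adult wild-type mice of strain C57BL/6J, 1 library for each of 3 mice on the series' design text, with no treatment and no second group. Sorting by cell type is not mentioned in the labels, and the mice's sex is not stated.

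The sodium pump exports sodium and imports potassium at the cost of ATP. Its catalytic alpha subunit reaches the cell surface only when joined to a glycosylated beta subunit, which also contributes to cell adhesion. FXYD proteins are small single-span membrane proteins, named for a shared amino acid motif, that bind the pump and adjust its affinity for sodium and potassium. In brain capillaries the pump of the endothelium helps to drive secretion of interstitial fluid and to clear potassium, and choroid plexus epithelium, astrocytes and neurons are further cells known for strong pump activity.

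Depth ranged from 128428355 to 150449539 counts per library. Endothelial markers stood highest among the cell type lists by median, at 10.27 on the log2(CPM + 1) scale, where CPM is the count scaled to the library's total after TMM normalization. Smooth muscle markers were close behind at 10.05, then microglial markers at 9.07 and pericyte markers at 8.71. These medians are not divided by gene length. Per kilobase of merged exons the endothelial median was 242 CPM, followed by microglial markers at 219, smooth muscle markers at 189 and pericyte markers at 62.95 CPM. The order behind the endothelial list thus depends on length. Summed levels were 4586 to 5268 CPM for 5 smooth muscle genes and 3274 to 4393 CPM for 5 microglial genes. The 6 pericyte genes summed to 3464 to 3672 CPM. Markers of other cells were present, with summed levels of 5030 to 8145 CPM for 6 choroid plexus genes, nearly all of it Ttr, 853 to 1637 CPM for 6 astrocyte genes and 92.8 to 115 CPM for 6 neuronal genes. None of the markers in these lists was at 0 in all libraries. Pituitary hormone genes summed to 1431 CPM in replicate 2 against 19.0 and 16.9 CPM in replicates 1 and 3, and erythroid genes to 986 CPM in replicate 1 against 121 and 56.3 CPM. In bulk tissue of this kind, fewer cells of a type and less RNA per cell cannot be told apart.

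All 7 genes were detected, meaning 1 CPM or more in every library, as were 23.2% of the genes in the table. Their median level was 6.89 ± 0.29 on the log2(CPM + 1) scale (SD of the 3 library medians), beside 4.79 over the 13211 detected genes and 0.49 over the 30513 genes with any count. The 7 were chosen with earlier results of these data known. Their 4 relatives Atp1b4, Fxyd2, Fxyd3 and Fxyd4, all under the limit, were listed apart. Neither the detection count nor the median is therefore a result about the families as a whole. The levels spanned a wide range, from Atp1b2 at 390.1 CPM to Fxyd7 at 1.35 CPM. The 3 beta genes together held 919, 817.5 and 777.5 CPM in replicates 1, 2 and 3, and the 4 FXYD genes 431.5, 429 and 503 CPM.

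Atp1b2 had the most counts of the beta genes. It encodes the beta2 subunit, known as the adhesion molecule on glia from its part in contacts of astrocytes with neurons. Its level was 411.5, 395 and 364 CPM in replicates 1, 2 and 3, a mean of 390.1 ± 23.9 CPM (SD, n = 3). The 3 libraries lay within 1.13-fold of each other, and 97.2% of the detected genes had a lower mean CPM. Atp1b2 is often taken as a glial gene, and the defining astrocyte markers Gfap and Aqp4 were at 33.9 and 24.0 CPM, while Slc1a2, a glutamate transporter gene of astrocytes, was at 1047 CPM. The part of astrocyte RNA in the Atp1b2 level was not tested.

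Atp1b3, which encodes the widely expressed beta3 subunit, had 361, 309 and 316 CPM in replicates 1, 2 and 3, with a mean of 329 ± 28.4 CPM (SD, n = 3). Replicate 1 was the highest and the others were close together. Atp1b1 encodes beta1, the subunit usual in kidney, heart and neurons. It had 146, 114 and 97.3 CPM in replicates 1, 2 and 3, a mean of 119 ± 24.7 CPM (SD, n = 3). In each library Atp1b1 lay below both other beta genes, and the ranges did not overlap. The highest library was 1.5-fold above the lowest, a spread larger than that of 87.8% of the detected genes.

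Fxyd5 was the most abundant FXYD gene. It encodes dysadherin, which has a long extracellular part, raises the transport rate of the pump and reduces cell adhesion. It had 331, 331 and 389 CPM in replicates 1, 2 and 3, a mean of 350.3 ± 33.2 CPM (SD, n = 3). Its level thus overlapped in CPM with those of Atp1b2 and Atp1b3. Fxyd1, which encodes phospholemman, the pump regulator of heart and muscle that kinases phosphorylate, had 70.0, 73.6 and 70.1 CPM. Its mean was 71.2 ± 2.08 CPM (SD, n = 3), and the coefficient of variation of 2.91% was the smallest of the 7 genes, beside a median of 9.59% over all detected genes.

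Fxyd6 and Fxyd7 were lower. Fxyd6 encodes phosphohippolin, a family member known from brain, and had 29.4, 23.0 and 42.4 CPM in replicates 1, 2 and 3, a mean of 31.6 ± 9.91 CPM (SD, n = 3). Replicate 3 was 1.85-fold above replicate 2, a wider spread than in 96.3% of the detected genes. Fxyd7, a brain FXYD gene known from neurons and glia, had 164, 158 and 239 counts. These gave 1.26, 1.13 and 1.65 CPM, so its place above the detection limit was narrow in all 3 libraries. Counting error alone would give a coefficient of variation of 7.31% at its depth, against 19.9% measured. The 6 neuronal markers ranged from Rbfox3 at 1.68 CPM to Stmn2 at 79.4 CPM, and their part in the Fxyd7 level was not tested.

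**Figure D1:**
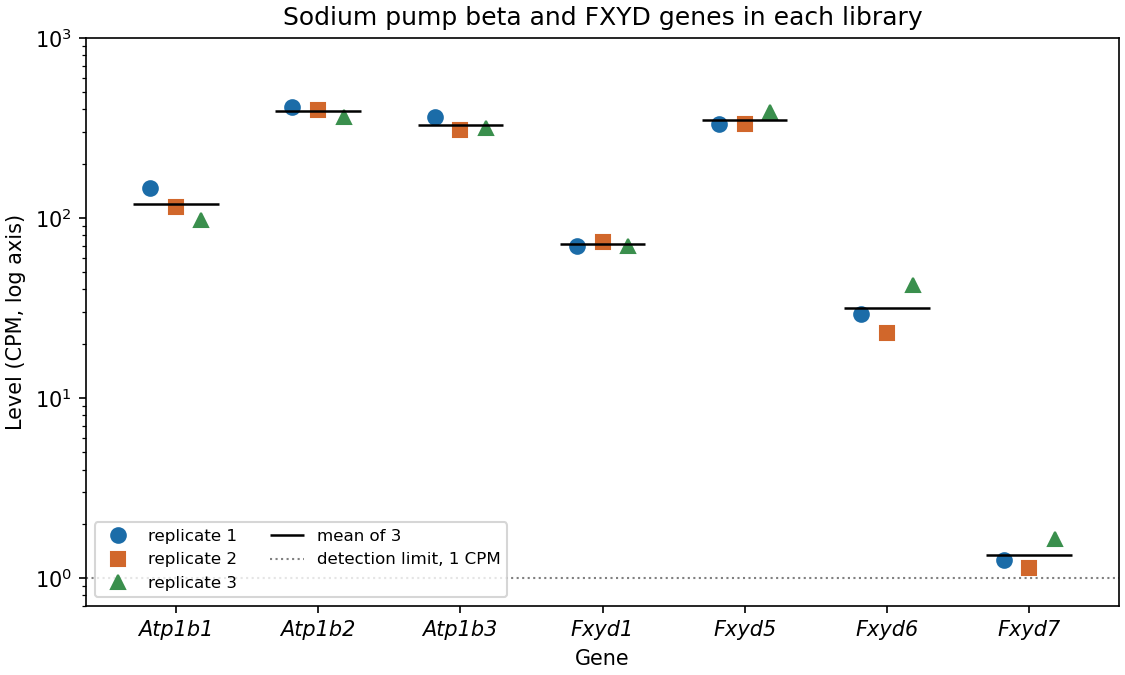
Level of each gene in CPM on a log axis, with 1 point for each of the 3 libraries and a line at their mean; the dotted line is the detection limit of 1 CPM. Atp1b2, Atp1b3 and Fxyd5 lie between 309 and 411.5 CPM, and Fxyd7 lies just above the limit at 1.13 to 1.65 CPM.

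The remaining genes of both families were under the detection limit. Atp1b4, a muscle relative of the beta subunits that works at the nuclear membrane in placental mammals, had 0 counts in all 3 libraries, which allows up to 0.0234, 0.0220 and 0.0199 CPM (3 counts of each library total, counting error only). Fxyd2, the gamma subunit of the kidney pump, had 34, 34 and 43 counts and a mean of 0.267 ± 0.0269 CPM (SD, n = 3). Fxyd3 and Fxyd4, known from epithelia, had means of 0.0884 and 0.0357 CPM. Both these means rest on at most 16 counts per library.

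Between genes, levels are comparable only per length, so CPM were divided by the merged exon length of each gene in GENCODE M21. On this scale Atp1b3 came first at 137.5 ± 11.9 CPM per kilobase (SD, n = 3), followed by Atp1b2 at 95.5 ± 5.86 and Fxyd5 at 83.6 ± 7.91 CPM per kilobase. Atp1b1 at 38.7 ± 8.02 and Fxyd1 at 32.6 ± 0.950 CPM per kilobase came next, then Fxyd6 at 7.69 ± 2.41 and Fxyd7 at 1.94 ± 0.387 CPM per kilobase. The values of Atp1b2 and Fxyd5 overlapped over the 3 libraries, as did those of Atp1b1 and Fxyd1, so neither pair differed beyond its spread. The other neighbours in this order did not overlap. The median over the 12826 detected genes with a length was 5.88 CPM per kilobase, and Fxyd7 was the 1 gene of the 7 below it. A sign-flip test over 3 libraries cannot go below 0.25, so no test of the order is given.

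The order depends on which length is used, since merged exons and transcripts differ in length by more for some genes than for others. Merged exons span 4192 bases for Fxyd5 and 2186 bases for Fxyd1, whereas their median coding transcripts have 817 and 539 bases. For Fxyd7 the 2 lengths are close, at 693 and 656.5 bases. Per kilobase of the median coding transcript, a length chosen after the data were seen, Fxyd5 led at 429 ± 40.6 CPM per kilobase (SD, n = 3), 2.62 ± 0.38 times Atp1b3 and higher in 3 of 3 libraries. Fxyd1 stood at 132 ± 3.85 CPM per kilobase and overlapped with Atp1b2 at 137 ± 8.42 CPM per kilobase. With the longest transcript, Atp1b3 was again first at 165 ± 14.3 CPM per kilobase and Fxyd5 second at 117 ± 11.1 CPM per kilobase. Under all 3 lengths Atp1b3 exceeded Atp1b2 and Atp1b1 in every library, and Fxyd6 and Fxyd7 were the lowest of the 7. On CPM not divided by length, Atp1b2 exceeded Atp1b3 in every library.

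**Figure D2:**
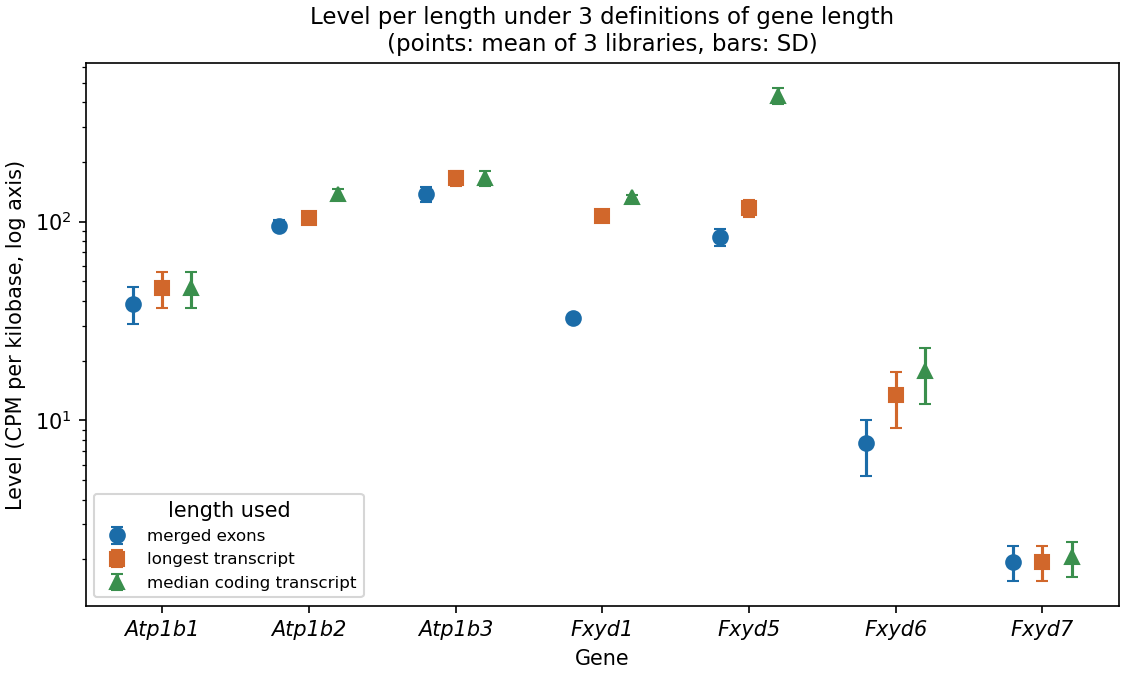
Level of each gene in CPM per kilobase on a log axis, as the mean of 3 libraries with the SD as bars, under 3 definitions of gene length marked by colour and shape. Fxyd5 moves from 83.6 with merged exons to 429 with the median coding transcript, while Atp1b1 moves only from 38.7 to 46.2.

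The makeup of the beta family was similar in the 3 mice. Per kilobase of merged exons, Atp1b3 made up 50.5%, 49.1% and 52.3% of the beta transcripts in replicates 1, 2 and 3, Atp1b2 33.7%, 36.8% and 35.2%, and Atp1b1 15.8%, 14.1% and 12.5%. No pair of the 3 genes overlapped. The ratio of Atp1b3 to Atp1b2 was 1.44 ± 0.09 (SD, n = 3). Shares within a library do not depend on how libraries are scaled to each other.

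Among the 4 FXYD genes, Fxyd5 took most of the transcripts. Its share per kilobase of merged exons was 65.8%, 65.9% and 67.4% in replicates 1, 2 and 3. Fxyd1 held 26.0% ± 2.44, Fxyd6 6.04% ± 1.43 and Fxyd7 1.53% ± 0.185 (SD, n = 3). With the longest transcript as length, Fxyd5 and Fxyd1 had close shares of 48.9% ± 1.73 and 44.8% ± 3.25, and the ratio of Fxyd5 to Fxyd1 was 1.05, 1.00 and 1.24 in replicates 1, 2 and 3. The ratio of summed beta to summed FXYD transcripts was 2.18 ± 0.328 per kilobase of merged exons and 0.604 ± 0.0892 per kilobase of the median coding transcript (SD, n = 3), so which family is the more abundant turns with the length used.

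**Figure D3:**
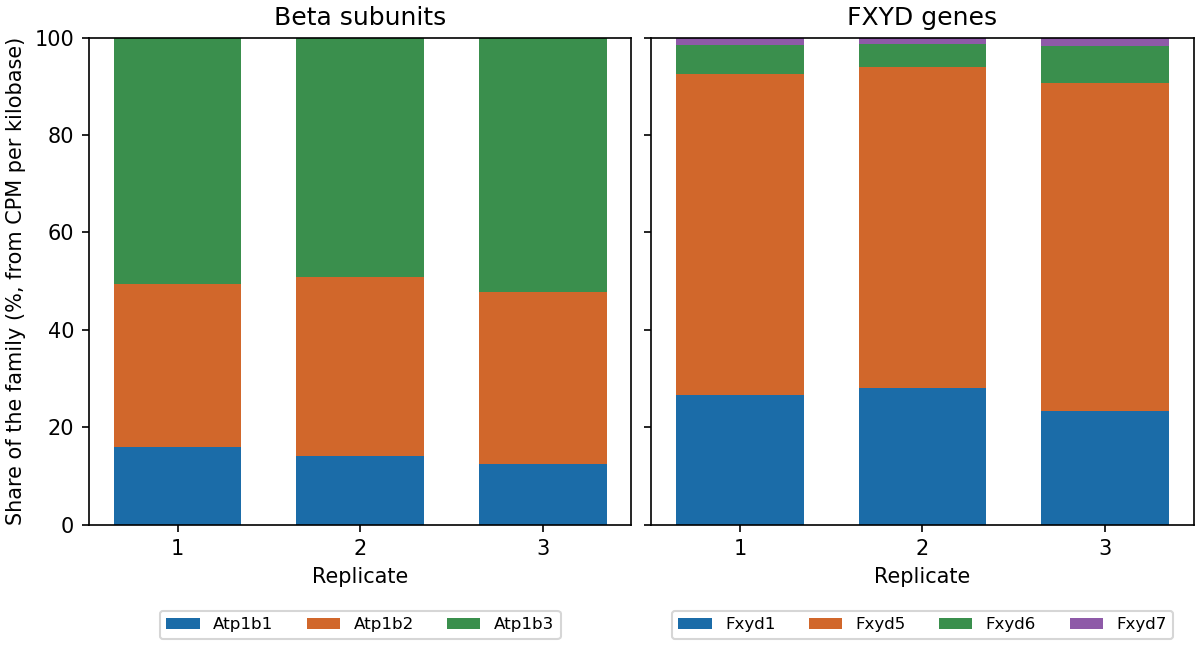
Share of each gene in the summed CPM per kilobase of merged exons of its family, in percent, for the beta genes on the left and the FXYD genes on the right, with 1 bar for each library. Atp1b3 takes 49.1% to 52.3% of the beta bars and Fxyd5 65.8% to 67.4% of the FXYD bars.

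Fxyd5, Fxyd7 and Fxyd1 are direct neighbours on the same strand of chromosome 7 in GENCODE M21, with Fxyd7 between the other two. The gaps between the gene models are 31 bp from Fxyd5 to Fxyd7 and 210 bp from Fxyd7 to Fxyd1. Fxyd7 was far below both. Per kilobase of merged exons Fxyd5 was 43.6 ± 4.73 times and Fxyd1 17.2 ± 3.59 times as high as Fxyd7 (SD, n = 3). Per kilobase of the median coding transcript these ratios were 212 ± 23.0 and 66.3 ± 13.8, so their size depends on the length while their direction was the same in every library. Fxyd6 lies next to Fxyd2 on chromosome 9, and these neighbours too stood far apart, at 31.6 and 0.267 CPM.

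Promoter sequence was available for 5 of the 7 genes in a RefSeq table of build GRCm38.p6. Windows of 250 bases before the start are shown for 2 beta genes and 2 FXYD genes, to set their CpG and motif content side by side. Capitals mark matches on either strand to the GC box GGGCGG or its complement CCGCCC, the TATA box TATAAA or TTTATA, and the CCAAT box CCAAT or ATTGG. The windows are chr1:164458356-164458605 (minus strand) for Atp1b1, chr9:96364432-96364681 (minus strand) for Atp1b3, the first of 2 starts listed, chr7:31054854-31055103 (minus strand) for Fxyd1 and chr9:45369935-45370184 (plus strand) for Fxyd6.
Atp1b1: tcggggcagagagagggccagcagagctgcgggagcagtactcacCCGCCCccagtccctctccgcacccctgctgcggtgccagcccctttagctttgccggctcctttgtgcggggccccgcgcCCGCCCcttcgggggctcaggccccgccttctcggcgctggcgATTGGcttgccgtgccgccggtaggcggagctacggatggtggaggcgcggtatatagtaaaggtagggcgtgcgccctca
Atp1b3: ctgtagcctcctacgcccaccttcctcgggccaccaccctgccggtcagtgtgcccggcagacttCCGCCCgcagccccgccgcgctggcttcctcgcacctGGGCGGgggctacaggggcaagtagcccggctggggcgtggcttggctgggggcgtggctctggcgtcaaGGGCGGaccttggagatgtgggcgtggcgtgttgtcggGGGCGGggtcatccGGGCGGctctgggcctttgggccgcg
Fxyd1: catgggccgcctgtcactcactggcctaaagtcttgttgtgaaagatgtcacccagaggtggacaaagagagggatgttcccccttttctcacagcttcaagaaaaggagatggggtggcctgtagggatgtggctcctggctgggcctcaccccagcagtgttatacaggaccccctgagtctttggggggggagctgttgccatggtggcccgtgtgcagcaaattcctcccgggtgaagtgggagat
Fxyd6: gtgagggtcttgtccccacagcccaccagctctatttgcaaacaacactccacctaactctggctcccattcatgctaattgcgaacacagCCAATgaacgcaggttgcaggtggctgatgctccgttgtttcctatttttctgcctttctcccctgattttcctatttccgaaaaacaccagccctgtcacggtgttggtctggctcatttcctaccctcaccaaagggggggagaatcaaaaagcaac

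The Atp1b1 window held 24 CpG and 2 GC box matches, and the Atp1b3 window 24 CpG and 5 GC box matches. The median over 32851 windows of the same length was 6 CpG, and 88% had fewer than either. The second Atp1b3 start had 35 CpG and no match. The Fxyd1 and Fxyd5 windows held 3 CpG each and the Fxyd6 window 5, all without a GC box match. A GC box match occurred in 32.7% of all windows, a CCAAT box match in 33.8% and a TATA box match in 12.4%. Atp1b1 and Fxyd6 each had 1 CCAAT box match, and no window of these genes had a TATA box match. The matches are descriptions of sequence and not of factor binding.

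Between the mice, 4 of the 7 genes had a ratio of highest to lowest library under 1.2, the median over detected genes, and Atp1b1, Fxyd6 and Fxyd7 had a larger one. None of the 7 passed the test of spread, in which edgeR's quasi-likelihood dispersion of each gene is set against the trend over 18087 genes. By that test 0.0829% of all genes were called at an adjusted p under 0.05 (15 genes), and 5.17% had an unadjusted p under 0.05. Fxyd6 was the 1 gene of the 7 under that unadjusted limit, and its adjusted p was 0.816 in edgeR (0.197 to 0.996 over the alternatives). Atp1b1 followed with an adjusted p of 0.969 in edgeR (0.546 to 0.996 over the alternatives). The adjusted p of the other 5 genes was 0.993 or more in edgeR (0.957 or more over the alternatives). None of the 7 was marked as a dispersion outlier by DESeq2. On simulated counts the test found 15.5% of 2-fold shifts in 1 library and 99% of 4-fold shifts, so a difference of the size seen for Fxyd6 can be missed. Every simulated gene had the dispersion of the trend, without the variation of real genes around it, so these shares do not carry over to the data. The neuronal marker Snap25, with its highest library 3.76-fold above its lowest, had an adjusted p of 0.391 in edgeR. Larger differences can therefore be missed too.

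The 3 beta genes were highest in replicate 1 and 3 of the 4 FXYD genes in replicate 3, although none of these differences passed the test of spread. Relative to its own mean, Atp1b1 deviated by 0.31, -0.04 and -0.27 on the log2 scale in replicates 1, 2 and 3, and Atp1b2 and Atp1b3 were also highest in replicate 1, at 0.08 and 0.14. Fxyd5, Fxyd6 and Fxyd7 were highest in replicate 3, at 0.15, 0.47 and 0.31. Fxyd1 stayed between -0.03 and 0.05. The share of all detected genes that were highest in each replicate is not given, so these counts are not read as particular to the members. The ratio of summed beta to summed FXYD transcripts was 2.50, 2.19 and 1.84 in replicates 1, 2 and 3 per kilobase of merged exons.

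Marker lists of the other cell types had these values in the same libraries. The choroid plexus list deviated by 0.34, 0.09 and -0.43 on average over its 6 markers, all detected, whereas its summed level, nearly all Ttr, was highest in replicate 2 at 8145 CPM, against 6839 and 5030 CPM in replicates 1 and 3. Of the 50 detected markers, the choroid plexus gene Clic6 had the profile nearest to that of Atp1b1, with a largest difference of 0.14 on the log2 scale, and 690 of the 13210 other detected genes were as near or nearer. The astrocyte list deviated by 0.14, 0.22 and -0.37, the microglial list by 0.19, -0.23 and 0.04, and the endothelial list by -0.14, 0.06 and 0.09. The neuronal list deviated by 0.26, -0.13 and -0.13, and the oligodendrocyte list by 0.08, -0.04 and -0.04, so both were also highest in replicate 1. The smooth muscle list deviated by 0.07, -0.16 and 0.09, and the pericyte list by -0.135, 0.141 and -0.006. No gene of any of these lists was called for spread between mice by edgeR. The erythroid list deviated by 2.38, -0.61 and -1.77, with 4 of 4 genes called, and 4 of 4 pituitary genes were called too. The part of these cell types in the differences between libraries was not tested.

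The nearest markers of the other genes came from several lists. They were the pericyte genes Notch3 for Atp1b2 (largest difference 0.03) and Rgs5 for Atp1b3 (0.03), the endothelial gene Tek for Fxyd1 (0.03), the smooth muscle gene Myl9 for Fxyd5 (0.09) and the microglial gene Tmem119 for both Fxyd6 (0.22) and Fxyd7 (0.15). Some other markers of the same lists had other profiles. Rgs5 deviated by 0.15, -0.07 and -0.08 in replicates 1, 2 and 3, but the pericyte gene Pdgfrb by -0.13, 0.12 and 0.01. Tmem119 deviated by 0.08, -0.33 and 0.26, but the microglial gene P2ry12 by 0.49, -0.34 and -0.15. A nearest marker therefore does not stand for its list. Between 184 and 1759 detected genes were as near to these members, and with 3 libraries no correlation is given.

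**Figure D4:**
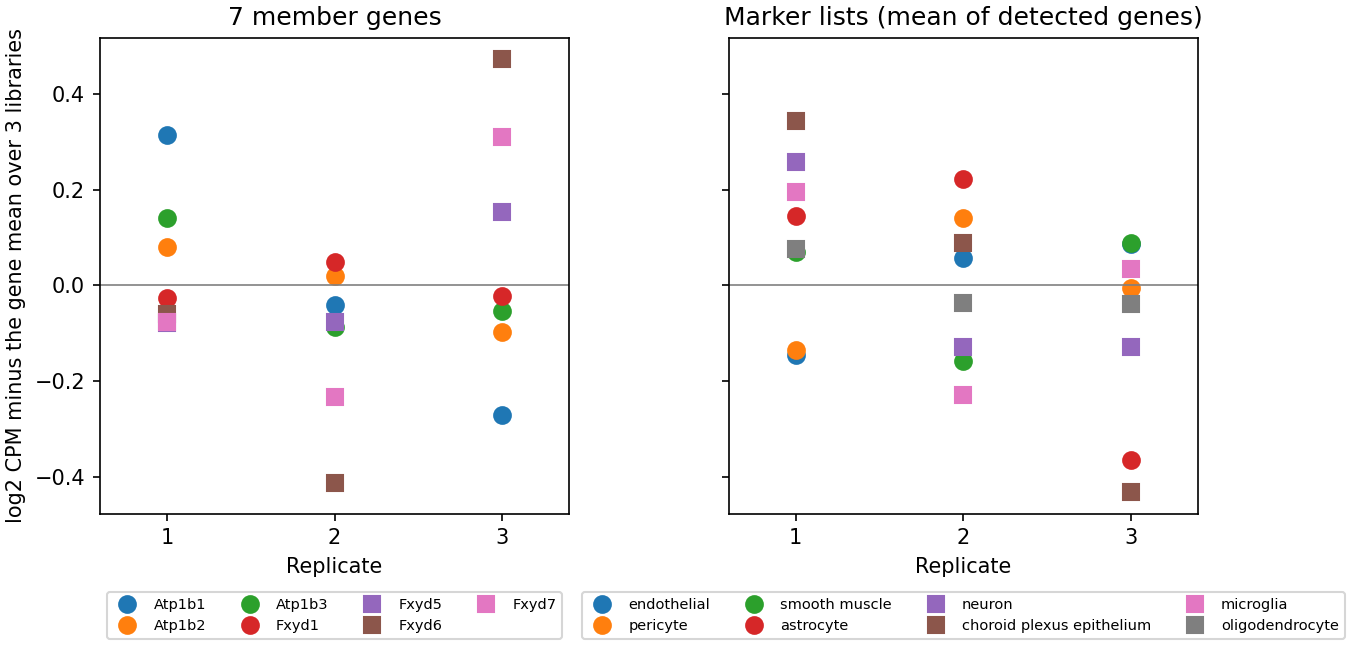
Deviation of log2 CPM from the mean of the 3 libraries for each of the 7 genes on the left, and the mean deviation of the detected genes of 8 marker lists on the right, by replicate. Atp1b1 runs from 0.31 in replicate 1 to -0.27 in replicate 3, while Fxyd6 is highest in replicate 3 at 0.47. The choroid plexus list runs from 0.34 to -0.43 and the neuronal list from 0.26 to -0.13.

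Genes known to regulate, anchor or modify the pump were mostly present. Of 20 such genes, 17 were detected, beside 23.2% of the whole table, with a median of 5.29 on the log2(CPM + 1) scale. The list was chosen with earlier results of these data known, so its detection count is not a result about these genes. Highest per kilobase were the spectrin genes Sptbn1 at 145 ± 13.3 and Sptan1 at 87.5 ± 10.3 CPM per kilobase, which belong to the membrane skeleton, and the phosphatase gene Ppp1ca at 85.1 ± 4.61 CPM per kilobase (SD, n = 3). Lowest were the ankyrin genes Ank2 at 0.497 and Ank3 at 0.160 CPM per kilobase, whose proteins tie the pump to spectrin. The place of Ank2 depends on length, since per kilobase of the median coding transcript it had 6.70 CPM per kilobase, above Hepacam at 3.61 and Prkca at 3.13. The 3 highest regulators were the same genes under all 3 lengths. Nkain1, Nkain2 and Nkain3, which encode proteins that interact with the beta1 subunit, were under the limit at 0.438, 0.537 and 0.0722 CPM. Nkain4 of the same family was detected, at a mean of 6.69 CPM. Of the 19 regulators tested for spread between mice, 0 were called by edgeR, beside 0.0829% of all genes, so this count says nothing particular about them.

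Genes that move sodium and potassium beside the pump, or control such carriers, were detected in 24 of 25 cases, beside 23.2% of the whole table, with a median of 5.64 on the log2(CPM + 1) scale. Slc38a5, a sodium-coupled glutamine carrier, was highest at 156 ± 27.0 CPM per kilobase (SD, n = 3). The glial potassium channel gene Kcnj10 followed at 32.5 ± 8.43 CPM per kilobase and the potassium chloride cotransporter gene Slc12a4 at 20.1 ± 0.573 CPM per kilobase. Slc38a5 stayed first under the other lengths, but the places behind it did not hold, and per kilobase of the median coding transcript the kinase gene Wnk1 at 43.6 CPM per kilobase stood above Kcnj10. With merged exons, the lowest detected were the bicarbonate carrier gene Slc4a7 at 1.75 CPM per kilobase and the epithelial sodium channel gene Scnn1a at 0.496 CPM per kilobase, and the exchanger gene Slc8a3 was under the limit at 0.320 CPM. None of these 25 genes was called for spread between mice by edgeR, again beside 0.0829% of all genes.

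Shared sequence affects 2 of the beta genes. Of the exonic length of Atp1b1, 18.7% lies under exons of Nme7 on the other strand. Nme7 had 1258, 1592 and 1442 counts against 18994, 15955 and 14122 for Atp1b1. The library kit keeps strand, but how strand was set in counting is not stated. Atp1b3 has a near copy, Gm1848, that matches it over 805 bases at 96.4% identity and had 41, 24 and 28 counts against 47002, 43146 and 45860.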

How the data were processed

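Polyadenylated RNA of 3 libraries was sequenced as paired reads from a stranded kit, per the labels' protocols. The deposited table holds raw whole-number counts per gene symbol. The authors used featureCounts and Subread 1.4.6-p5 with build GRCm39, per the submitters' processing notes. The aligner, annotation and strand setting are not given in the sources. The sample labels do not say whether the replicates are technical, but the series' design text gives 1 library for each of 3 mice. Spread between the replicates is all that a p-value here measures. No pair of libraries was a copy, with a mean chi-square of 179 to 252 per detected gene.

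CPM were computed with TMM library sizes in edgeR 4.0.16 (R 4.3.3); TMM factors were 1.01, 1.02 and 0.965. Log values used a pseudocount of 1. Lengths came from GENCODE M21 (build GRCm38), matched by symbol for 98.3% of counts and used for lengths, overlaps and neighbours only. For spread, edgeR's quasi-likelihood fit with only an intercept followed filterByExpr, and each dispersion was set against the trended prior (upper-tail F test, Benjamini-Hochberg over all genes at 0.05). The test was checked on simulated data with 200 shifted genes per fold size, over 17762 to 17789 genes, and made 0 false calls. Every simulated gene had the dispersion of the trend, so this check is easier than the real data. Alternatives were DESeq2 1.42.0, other scalings, filters, priors, lengths, pseudocounts and omitted libraries.

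The members and lists were chosen with earlier results of these data known. Named by rule were the 7 genes, 4 relatives, the 3 highest and 2 lowest detected genes per kilobase of each pathway list, markers of 10 cell type lists and the nearest marker of each member. The alpha subunit genes are not reported here.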

Additional observations from a re-analysis of the deposited data

How the results depend on the processing

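Levels in CPM moved by less than 1 SD between TMM, DESeq2 size factors and plain library totals for all 7 genes. Omitting 1 library at a time gave 105.0 to 132 CPM for Atp1b1, 377 to 410.4 for Atp1b2, 310.2 to 341 for Atp1b3, 69.3 to 73.1 for Fxyd1, 337 to 358 for Fxyd5, 26.6 to 35.5 for Fxyd6 and 1.22 to 1.44 for Fxyd7. The list median ranged from 6.72 to 7.05. Gene length moved levels most. The longest transcript gave 104.0 CPM per kilobase for Atp1b2, 164.8 for Atp1b3, 106.6 for Fxyd1, 116.8 for Fxyd5 and 13.4 for Fxyd6, and the median coding transcript gave 137.3, 164.8, 132.2, 428.8 and 17.7. Shares of counts were 46.6% for Atp1b2, 39.2% for Atp1b3, 15.8% for Fxyd1, 77.1% for Fxyd5 and 0.294% for Fxyd7. With the median coding transcript they were 39.5%, 47.3%, 22.9%, 73.8% and 0.351%, and 3.01% for Fxyd6. Shares with 1 library omitted ranged from 13.3% to 15.0% for Atp1b1, 34.5% to 36.0% for Atp1b2, 49.8% to 51.4% for Atp1b3, 25.0% to 27.4% for Fxyd1, 65.9% to 66.7% for Fxyd5, 5.31% to 6.74% for Fxyd6 and 1.44% to 1.62% for Fxyd7. The number of genes called for spread was 173 with every gene that had a count, 0 with a robust prior (781 at an unadjusted p under 0.05 in edgeR) and 112 dispersion outliers in DESeq2; omitting 1 library gave 6 to 93, with 6 without replicate 1, 93 without replicate 2 and 33 without replicate 3. The cause was not tested. None of the 7 genes was called under any of these settings. No paired analysis was possible because the 3 libraries form 1 group. Depth limits the relatives under 1 CPM. It limits Fxyd7 only in part, since counting error would give a coefficient of variation of 7.31% there, against 19.95% measured. Groups of 3 are too small for the search for single outlying libraries.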
